A study of Mus musculus with 12 samples.

Results

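The DNA replication genes described here are 47 genes whose products license replication origins, unwind and copy DNA, supply deoxynucleotides and histones, or drive the start of S phase. They were chosen by name from a list, and a gene belongs if its symbol is in the deposited table. All 47 of 47 listed symbols were found among the 12516 genes of the table, and all 47 were among the 12432 genes that passed a filter on low values. RNA sequencing was done on germ cells of 12 single female mouse embryos at embryonic day 13.5, sorted as Oct4-positive cells. The compared groups were 6 embryos whose mothers had vitamin C withdrawn during the first 2 weeks of gestation and 6 embryos whose mothers were supplied with physiological vitamin C. Both groups were Gulo-/- throughout, with a C57BL/6 background. Mice without Gulo lack the final step of making vitamin C and depend on the diet for it, and no embryo able to make its own vitamin C was included. The design asks what the mother's vitamin C does to expression in the embryonic germline.

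A replication origin is first bound by the origin recognition complex, which with Cdc6 and Cdt1 loads the Mcm2 to Mcm7 ring as an inactive helicase. Kinases of S phase then recruit Cdc45 and the GINS complex, the ring opens the duplex, and polymerase alpha with primase starts each strand before polymerases delta and epsilon take over on the Pcna clamp. Most of these genes are transcribed at the boundary of G1 and S phase under E2F factors. Female germ cells of this age are leaving mitotic proliferation, and each passes through a last, premeiotic S phase before meiotic prophase, so that replication genes serve both the mitotic and the premeiotic cells of a sample.

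All values below are the authors' normalized log2 expression values unless another scale is named. A fold change is the mean of withdrawn embryos minus the mean of supplied embryos on that log2 scale, with limma's moderated standard error, written SE. A gene was called when limma's two-sided Benjamini-Hochberg adjusted p, over all genes tested, was below 0.05. The depth of each library is unknown, and correlations between libraries over genes lay between 0.986 and 0.999. Withdrawn replicate 5 stood apart, being the highest embryo for 22.3% and the lowest for 27.3% of all genes tested. Of 27 tested markers of supporting, mesenchymal, endothelial and macrophage cells, 25 had a negative fold change. The mean of all 28 such markers in the table lay between 5.21 and 5.32 in withdrawn and between 5.25 and 5.45 in supplied embryos, and the 5 erythroid markers sought are not among the listed symbols. The mean of 9 germ cell markers was 11.42 to 11.46 in withdrawn and 11.20 to 11.43 in supplied embryos. In RNA from sorted cells in bulk, fewer cells of a type and less RNA per cell cannot be told apart. Foxl2 and Nr5a1, from the list of supporting cell markers, averaged 3.68 and 4.45 in withdrawn and 3.74 and 4.48 in supplied embryos. None of the 12 markers of that list was above the median gene of the table.

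The promoters of the replication genes were searched for 8 motifs, and no test of enrichment was made. RefSeq promoter windows of build GRCm38.p6, from 250 bases before to 50 bases after the annotated start, were matched for 39 of the 47 genes. Of the E2F motif only the forms TTTCGCGC and TTTGGCGC were searched, on both strands, so sites of another form were not counted. Either form was present in 11 of the 39 (28.2%), against 2.00% of the promoters of 8849 genes tested and 0.929% of those of all 27025 genes. The CCAAT box, the motif of the factor NF-Y, was found on either strand in 25 of 39 (64.1%), against 43.8% of genes tested. The ETS motif CCGGAAG was present in 15 (38.5%, against 20.3%), the E-box CACGTG in 9 (23.1%, against 12.2%) and the GC box GGGCGG in 30 (76.9%, against 71.6%). The CHR motif TTTGAA (10.3%, against 13.7%), the NRF1 motif CGCATGCG (5.13%, against 4.66%) and the YY1 motif AAGATGGC (7.69%, against 5.24%) were each found in at most 4. These are matches of letters on both strands and not shown binding sites, and the motifs were settled on with the values of these genes known.

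The 11 stretches of 30 bases that hold the first E2F match of each such promoter are shown because this motif had the greatest ratio of its share in these promoters to its share among genes tested. Each is given on the gene's own strand, 5′ to 3′, with every base of a match to either searched form in capitals. The matches of Mcm5 and the first of the Mcm6 matches are overlapping pairs, and the match of Mcm7 overlaps a CCAAT box.
Cdt1 (chr8:122568035-122568064, plus strand): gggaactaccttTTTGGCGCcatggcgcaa
Lig1 (chr7:13278841-13278870, plus strand): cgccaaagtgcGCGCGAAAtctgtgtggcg
Mcm3 (chr1:20820263-20820292, minus strand): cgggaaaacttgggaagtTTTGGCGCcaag
Mcm5 (chr8:75109345-75109374, plus strand): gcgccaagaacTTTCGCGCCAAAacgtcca
Mcm6 (chr1:128359797-128359826, minus strand): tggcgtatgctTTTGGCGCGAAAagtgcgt
Mcm7 (chr5:138171849-138171878, minus strand): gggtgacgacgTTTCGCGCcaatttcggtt
Mcm8 (chr2:132816161-132816190, plus strand): gcagaagcgcgtcatagacGCGCCAAAaaa
Orc1 (chr4:108579416-108579445, plus strand): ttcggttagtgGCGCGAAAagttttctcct
Pola1 (chrX:93632275-93632304, minus strand): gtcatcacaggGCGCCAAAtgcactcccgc
Pole2 (chr12:69228162-69228191, minus strand): cgtcggcggtgGCGCCAAAtcgcgaacatg
Rfc3 (chr5:151651200-151651229, minus strand): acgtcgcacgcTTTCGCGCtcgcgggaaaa

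Within the 300-base windows the first E2F matches began between position -153 relative to the start, in Mcm5, and position 40, in Mcm8. Of the 11 genes with a match, 0 were called by limma and 8 had a positive fold change, with a range from -0.19 to 0.13. Of the 28 genes with a promoter entry and no match to either searched form within the window, 2 were called and 19 had a positive fold change. Their range was from -0.20 to 0.27. The genes with and without a match were not compared by a test, and those without one may hold other forms of the motif.

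**Figure D1:**
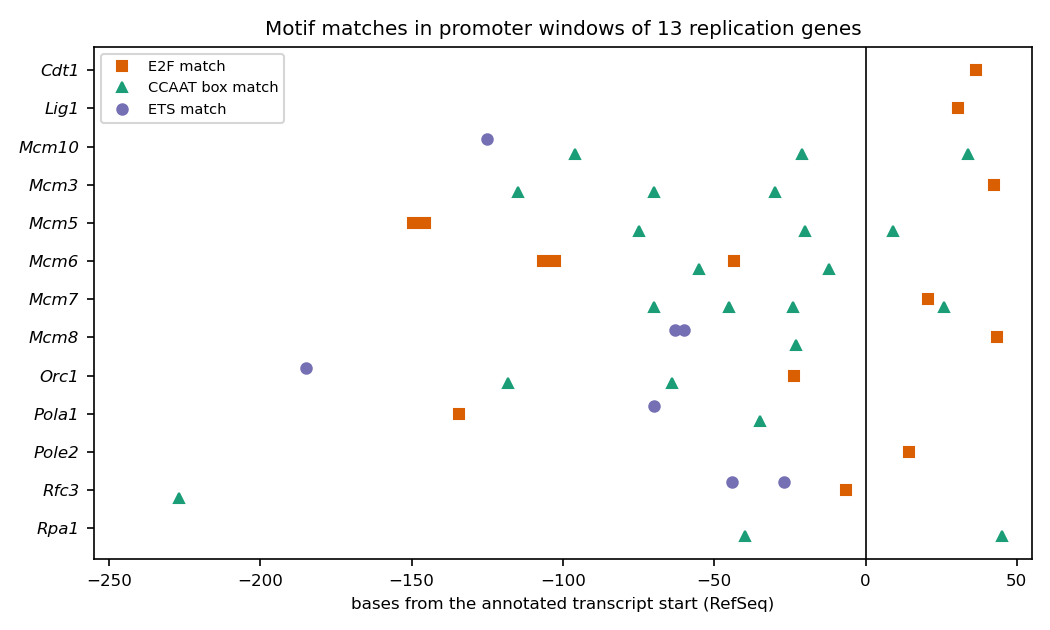
Positions of E2F (orange squares), CCAAT box (green triangles) and ETS (violet circles) matches in the promoter windows of the 11 genes with an E2F match and of Mcm10 and Rpa1; the x axis is the distance in bases from the annotated start, and each row is a gene. Mcm10 has 3 CCAAT boxes and Rpa1 has 2, and neither has a match to the searched E2F forms within its window. The Mcm10 window ends in TTTGGCG, which lacks only the last base of TTTGGCGC, so a match across its edge is undecided.

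Of the replication genes, 2 passed the test between withdrawn and supplied embryos. Mcm10, which helps to activate the helicase, and Rpa1, the large subunit of the protein that coats single-stranded DNA, rose, by log2 fold changes of 0.27 and 0.25. Some embryos share a title number and diet, and neither gene was called by limma with a random effect for such embryos (adjusted p = 0.0841 for Mcm10 and 0.0694 for Rpa1) or with them averaged (0.126 for Mcm10 and 0.111 for Rpa1). The remaining 45 genes were not called. In all, 2 of 47 (4.26%) were called higher and 0 lower by limma, against 14.0% of all genes tested called in either direction and 6.22% called higher. Among the 8060 genes whose mean lay within the range of these 47, 16.7% were called.

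Before adjustment, 11 of 47 had a limma p below 0.05, of which 9 were higher and 2 lower in withdrawn embryos. The same held for 30.2% of all genes tested. The withdrawn and supplied groups overlapped for every one of the 47, so 0 of 47 were free of overlap, against 4.49% of all genes. The exact permutation test, over every way of dividing the embryos, called 0 of the 47 after adjustment, against 4.49% of all genes tested. An unadjusted exact p below 0.05 was found for 9 of the 47, against 3473 of the 12432 genes tested. The fold changes had a median of 0.04 over the 47 genes and of -0.01 over all genes tested, and 32 of 47 (68.1%) were positive, against 46.6% of all genes and 52.8% of the 8060 genes in the same range of mean value. The share over all genes was 52.0% with quantile normalization and 52.5% with median centring. Over 28 alternatives 29 to 36 of the 47 were positive, and 29 were with quantile normalization, with the somatic marker covariate and without supplied replicate 4. Their median size without sign was 0.08, which was also 0.08 over all genes.

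The 95% intervals of limma describe what could have gone undetected on the deposited scale only if the embryos are independent. Embryos of a title number and diet had a consensus correlation of 0.267. With a random effect for them the SE rose from 0.0827 to 0.0926 for Mcm10 and from 0.0971 to 0.112 for Pold2. The intervals below are from the fit without it. They lay wholly within 0.3 log2 units of 0 for 39 of the 47 genes and within 0.5 for all 47. The outermost bounds were -0.40, for Pold2, and 0.44, for Mcm10. The SD between embryos of a group, pooled over both diets, had a median of 0.111 for these genes and of 0.115 for all genes tested.

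**Figure D2:**
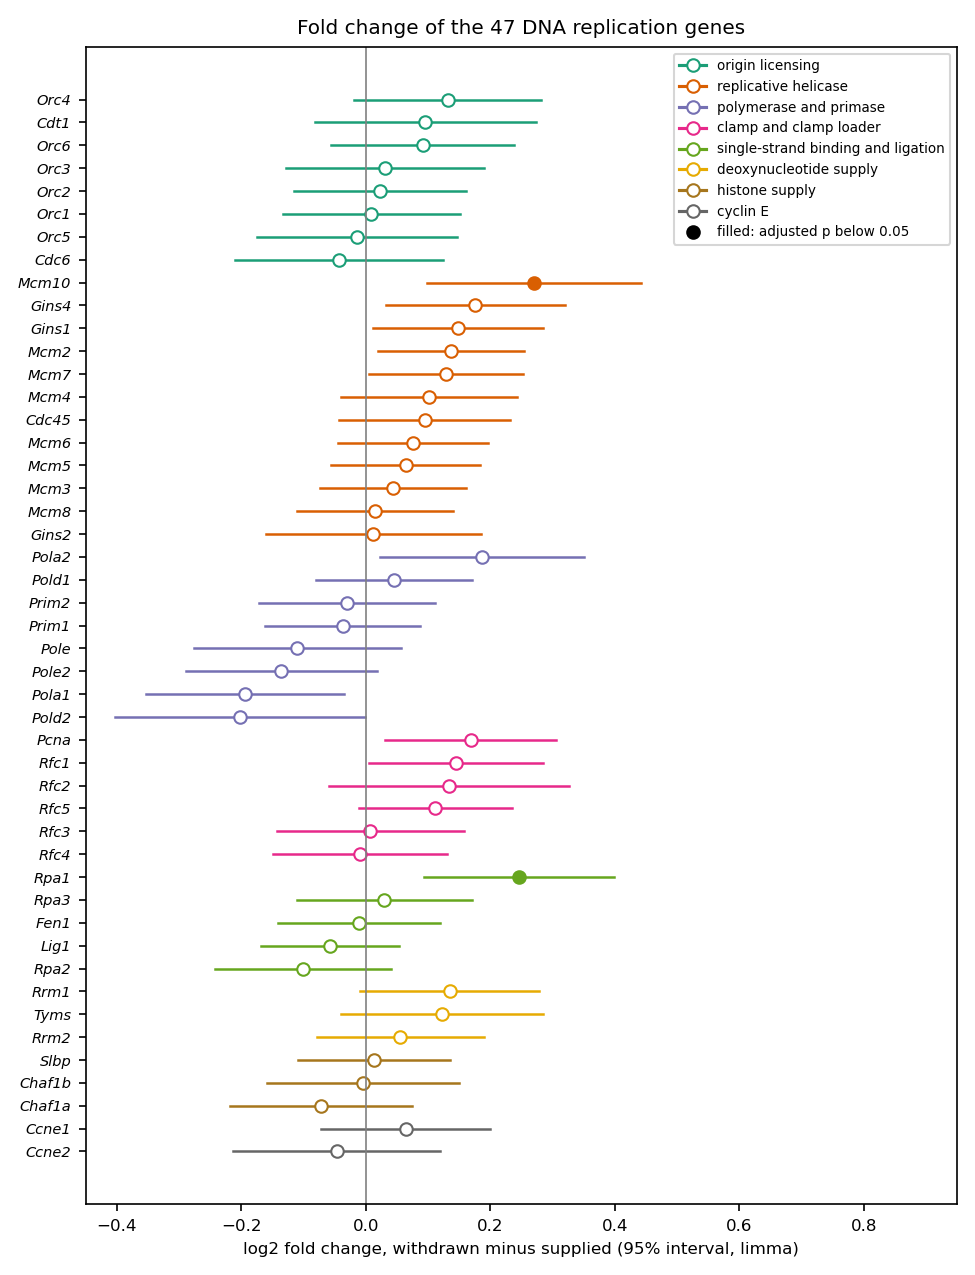
Log2 fold change, withdrawn minus supplied, of each of the 47 genes (points, x axis) with its 95% limma interval (lines), grouped and coloured by role; filled points passed an adjusted p of 0.05. Only Mcm10 and Rpa1 are filled, and the 12 helicase genes all lie right of 0 (10 to 12 of them over 28 alternatives).

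Of the 12 genes of the replicative helicase, Mcm10 was called higher and the others were not called. All 12 fold changes were positive, with a median of 0.10. Median centring added 0.0166 to every fold change, so it could not lower that count. With quantile normalization 10 of 12 were positive and Mcm10 was not called by limma (adjusted p = 0.0532). The count was also 10 of 12 without supplied replicate 4 and without title number 3. Each embryo's title carries a number from 1 to 4, and without the 4 embryos of title number 4 the helicase had 11 positive values and 0 calls by limma. Over all genes, the same fit called 0.394%.

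Mcm10 encodes a scaffold that binds the loaded helicase and polymerase alpha when forks start. It had 10.92, 10.88, 10.62, 10.97, 11.09 and 10.75 in withdrawn replicates 1 to 6, against 10.81, 10.53, 10.54, 10.76, 10.37 and 10.60 in supplied replicates 1 to 6. The groups overlapped, with 4 of the 6 withdrawn embryos above the highest supplied one and withdrawn replicate 3 and replicate 6 within the supplied range. Its mean was 10.87 ± 0.16 in withdrawn and 10.60 ± 0.16 in supplied embryos (SD, n = 6 each), a log2 fold change of 0.27 (SE 0.08, limma adjusted p = 0.0327), which is 1.21-fold, and higher than the supplied mean in 6 of 6 withdrawn embryos. The exact permutation p was 0.0195 before adjustment and 0.110 after adjustment over all genes. The call did not survive leaving out supplied replicate 2, 3, 5 or 6 or withdrawn replicate 1, 2, 4 or 5, with adjusted p values up to 0.0944. The fold change was 0.29 without title number 1 (adjusted p = 0.105) and 0.19 without title number 4 (adjusted p = 0.305), and over 28 alternatives it was called in 13, with values from 0.16 to 0.32.

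The Mcm10 promoter is shown because this gene had the largest fold change of the 47. In GRCm38.p6 it spans chr2:5012742-5013041 on the minus strand, is printed 5′ to 3′ on the gene's strand, and has its 3 CCAAT boxes in capitals.
Mcm10: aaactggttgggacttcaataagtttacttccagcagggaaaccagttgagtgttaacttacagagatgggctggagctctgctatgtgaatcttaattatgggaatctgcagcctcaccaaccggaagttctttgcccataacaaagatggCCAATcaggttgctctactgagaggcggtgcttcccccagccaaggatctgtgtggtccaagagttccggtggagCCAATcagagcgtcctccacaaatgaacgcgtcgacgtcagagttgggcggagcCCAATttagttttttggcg

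Mcm2 to Mcm7 form the ring that is loaded at origins and becomes the motor of the helicase. Mcm2 had 12.58, 12.62, 12.51, 12.55, 12.69 and 12.59 in withdrawn and 12.53, 12.50, 12.37, 12.51, 12.37 and 12.44 in supplied replicates 1 to 6. All but the lowest withdrawn embryo, replicate 3, exceeded the highest supplied one. The fold change of Mcm2 was 0.14 (SE 0.06, adjusted p = 0.108, exact permutation p = 0.00433 before adjustment) and did not pass. Mcm7 had 12.11, 12.10, 12.03, 12.06, 12.23 and 12.05 in withdrawn and 12.10, 11.97, 11.98, 11.97, 11.83 and 11.96 in supplied embryos. Supplied replicate 1 lay within the withdrawn range and the other 5 supplied embryos below it. Its fold change was 0.13 (SE 0.06, adjusted p = 0.150).

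The other ring subunits differed less. Mcm4 was at 0.10, Mcm6 at 0.08, Mcm5 at 0.06 and Mcm3 at 0.04, with limma adjusted p values from 0.335 to 0.648. Mcm3, which had the highest mean value of the 47 genes, had 12.98, 12.99, 12.95, 12.95, 13.10 and 12.96 in withdrawn and 13.001, 12.85, 12.96, 13.06, 12.91 and 12.89 in supplied embryos. The supplied range enclosed every withdrawn embryo but replicate 5. Mcm8, a relative of the ring subunits that acts in homologous recombination, was at 0.01 (adjusted p = 0.896).

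Cdc45 and the GINS proteins complete the active helicase. Gins4 had 9.27, 9.31, 9.26, 9.47, 9.28 and 9.51 in withdrawn and 9.21, 9.15, 9.08, 9.09, 9.17 and 9.36 in supplied embryos. Supplied replicate 6 was the 1 supplied embryo inside the withdrawn range, and the fold change was 0.18 (SE 0.07, adjusted p = 0.0918). Gins1 had 9.37, 9.58, 9.55, 9.51, 9.54 and 9.53 in withdrawn and 9.40, 9.26, 9.37, 9.23, 9.42 and 9.50 in supplied embryos. Withdrawn replicate 1 was the 1 withdrawn embryo inside the supplied range, and the fold change was 0.15 (SE 0.07, adjusted p = 0.132). Cdc45 was at 0.09 (adjusted p = 0.355).

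Gins2, the member with the lowest mean value, had 6.998, 6.92, 7.07, 7.24, 6.76 and 7.27 in withdrawn and 7.03, 7.05, 7.24, 6.83, 7.01 and 7.02 in supplied embryos. Its groups were spread over the same range, and its fold change was 0.01 (SE 0.08, adjusted p = 0.939). Annotated exons of Gins2 overlap those of a gene on the opposite strand, as do those of 12 other members, and the strand setting of the counting is not given in the sources used here. The exons of 1 more, Pole2, overlap an annotated gene on the same strand. Neither Mcm10 nor Rpa1 is among these 14.

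Rpa1, Rpa2 and Rpa3 form the trimer that protects single-stranded DNA at forks and at breaks. Rpa1 had 11.64, 11.80, 11.75, 11.68, 12.04 and 11.76 in withdrawn replicates 1 to 6 and 11.66, 11.58, 11.45, 11.65, 11.32 and 11.52 in supplied replicates 1 to 6. The groups overlapped narrowly, with withdrawn replicate 1 below the supplied replicates 1 and 4 and the other 5 withdrawn embryos above all supplied ones. Its mean was 11.78 ± 0.14 in withdrawn and 11.53 ± 0.13 in supplied embryos (SD, n = 6 each), a log2 fold change of 0.25 (SE 0.07, limma adjusted p = 0.0301), which is 1.19-fold, with 6 of 6 withdrawn embryos above the supplied mean. The exact permutation p was 0.00649 before adjustment and 0.0692 after it. The call was lost without supplied replicate 3, 5 or 6 or withdrawn replicate 2, 5 or 6, with adjusted p values up to 0.0873. The fold change was 0.23 without title number 2 (adjusted p = 0.0755) and 0.13 without title number 4 (adjusted p = 0.378), and the gene was called in 15 of 28 alternatives, with values from 0.13 to 0.32.

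The other subunits of the trimer did not pass: Rpa2 was at -0.10 (adjusted p = 0.338) and Rpa3 at 0.03 (adjusted p = 0.807). The differences between the subunits were not tested. Fen1, which trims the flaps of Okazaki fragments, was at -0.01, and Lig1, which seals them, at -0.06, with adjusted p values of 0.929 and 0.50. Lig1 had the narrowest spread of these genes, with a range of 12.84 to 12.93 in withdrawn and of 12.87 to 13.02 in supplied embryos.

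The Rpa1 promoter is shown as that of the other called gene. It spans chr11:75348334-75348633 of GRCm38.p6 on the minus strand, with its 2 CCAAT boxes in capitals, on the gene's strand.
Rpa1: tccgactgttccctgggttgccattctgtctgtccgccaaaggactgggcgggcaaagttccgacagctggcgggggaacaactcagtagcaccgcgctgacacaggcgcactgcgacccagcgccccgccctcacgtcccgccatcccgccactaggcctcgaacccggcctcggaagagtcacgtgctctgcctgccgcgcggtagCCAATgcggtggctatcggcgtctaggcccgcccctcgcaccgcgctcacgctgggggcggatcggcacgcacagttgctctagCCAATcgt

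With the mean of the somatic markers as a covariate, limma put Mcm10 at 0.16 (adjusted p = 0.455) and Rpa1 at 0.18 (adjusted p = 0.363). It called 1 of all genes tested. The covariate goes partly with diet, as 25 of the 27 markers had a negative fold change, so this fit cannot tell the parts of the covariate and diet apart. The SE rose from 0.0827 to 0.103 for Mcm10 and from 0.074 to 0.0958 for Rpa1. Of the 27 somatic markers tested, 2 were called lower, and of the 9 germ cell markers 5 were called higher and 2 lower by limma. The part of the germ cell markers in the values of Mcm10 and Rpa1 was not tested.

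**Figure D3:**
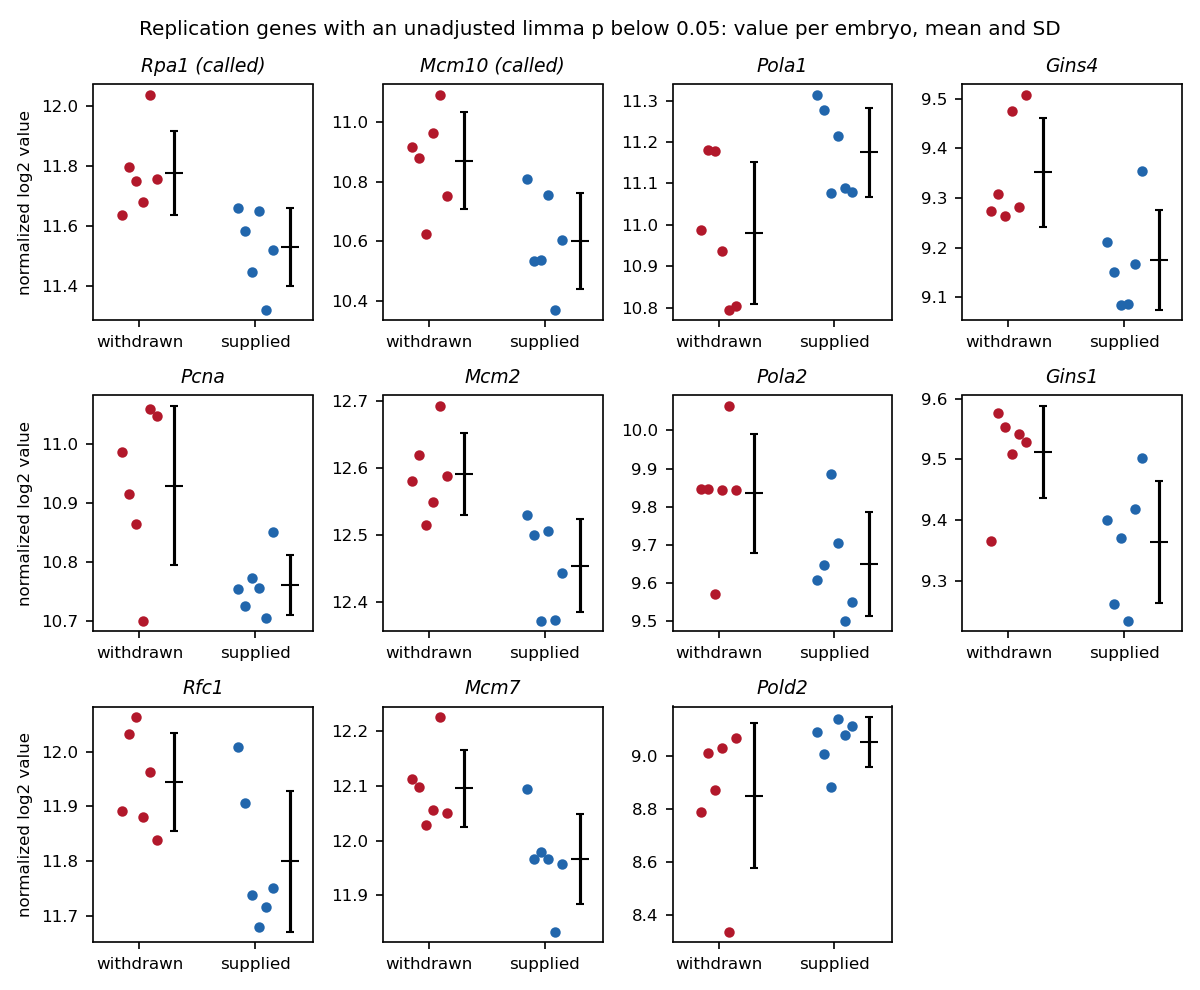
Normalized log2 value (y axis) in each of the 6 withdrawn (red, left) and 6 supplied (blue, right) embryos for the 11 genes with an unadjusted limma p below 0.05; black bars are the mean and SD. The groups overlap in every panel, and Mcm10 and Rpa1 are the 2 called genes.

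Licensing factors showed no called gene. Of the 8 genes for the origin recognition complex, Cdc6 and Cdt1, limma called 0, and 0 had an unadjusted p below 0.05, also by the exact permutation test. Their fold changes ran from -0.04 in Cdc6, the loader of the helicase, to 0.13 in Orc4. Orc4 had 10.28, 10.33, 10.30, 10.32, 10.53 and 10.41 in withdrawn and 10.10, 10.15, 10.34, 10.48, 10.13 and 10.19 in supplied embryos. Supplied replicates 3 and 4 lay within the withdrawn range and the other 4 supplied embryos below it, and the gene was not called (SE 0.07, adjusted p = 0.231). Orc1, the subunit that is itself under E2F control, was at 0.01, Orc2 at 0.02, Orc3 at 0.03, Orc5 at -0.01 and Orc6 at 0.09. Cdt1, which brings the ring to the origin, was at 0.10 (SE 0.09, adjusted p = 0.482). It ranged from 10.02 to 10.54 in withdrawn embryos and from 10.03 to 10.33 in supplied ones, so the 3 highest values were withdrawn embryos and so was the lowest.

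Of the 8 polymerase and primase genes none passed. Limma called 0, with 3 at an unadjusted p below 0.05 by limma and 1 by the exact test. A positive fold change was found for 2 and a negative one for 6, counts that also held in each of the 28 alternatives, of which 4 called 1 or 2 of these genes. Pola1 encodes the catalytic subunit of polymerase alpha, which with primase lays down the first stretch of each new strand. It had 10.99, 11.18, 11.18, 10.94, 10.80 and 10.80 in withdrawn and 11.31, 11.28, 11.08, 11.22, 11.09 and 11.08 in supplied embryos. Withdrawn replicates 1, 4, 5 and 6 were below all supplied embryos, and replicates 2 and 3 were within the supplied range. Its fold change was -0.19 (SE 0.08, adjusted p = 0.0914, exact permutation p = 0.0476 before adjustment). It was called lower in 4 of 28 alternatives, among them quantile normalization (adjusted p = 0.0328).

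Pola2, the accessory subunit of the same enzyme, had a fold change of the other sign. It had 9.85, 9.85, 9.57, 9.84, 10.06 and 9.84 in withdrawn and 9.61, 9.65, 9.89, 9.70, 9.50 and 9.55 in supplied embryos. Withdrawn replicate 5 was above every supplied embryo, replicate 3 lay among the lower supplied embryos, and the other 4 exceeded all supplied embryos but replicate 3. The fold change was 0.19 (SE 0.08, adjusted p = 0.115). Pola2 was called higher by limma without withdrawn replicate 3 (0.24, adjusted p = 0.0383) and without title number 2 (0.29, adjusted p = 0.0180), and was at 0.07 without title number 4 (adjusted p = 0.743). The primase genes Prim1 and Prim2 were at -0.04 and -0.03. Whether the subunits of this complex differ from each other in response was not tested.

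Pold2, a subunit of lagging strand polymerase delta, had 8.79, 9.01, 8.87, 9.03, 8.34 and 9.07 in withdrawn and 9.09, 9.01, 8.88, 9.14, 9.08 and 9.11 in supplied embryos. Withdrawn replicate 5 lay well below the other 11 embryos. The fold change was -0.20 (SE 0.10, adjusted p = 0.164), and it was -0.10 without that embryo. The catalytic subunit Pold1 was at 0.04. Polymerase epsilon of the leading strand was at -0.11 for Pole (adjusted p = 0.376) and -0.14 for Pole2 (adjusted p = 0.224), with the 6 withdrawn embryos of Pole2 all below the supplied mean.

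The Pola1 promoter is shown because this gene had the smallest p of those with a negative fold change and because its window holds both motifs. It spans chrX:93632106-93632405 of GRCm38.p6 on the minus strand, and the capitals mark an E2F match, GCGCCAAA, and a CCAAT box read on the other strand, ATTGG.
Pola1: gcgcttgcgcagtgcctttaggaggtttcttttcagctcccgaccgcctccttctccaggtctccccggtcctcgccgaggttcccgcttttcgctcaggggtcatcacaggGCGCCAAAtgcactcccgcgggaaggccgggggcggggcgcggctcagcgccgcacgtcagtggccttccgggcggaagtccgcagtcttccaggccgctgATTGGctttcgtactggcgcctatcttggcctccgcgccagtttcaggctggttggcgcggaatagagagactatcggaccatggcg

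Pcna, the ring clamp that holds polymerases on DNA, had 10.99, 10.92, 10.87, 10.70, 11.06 and 11.05 in withdrawn and 10.76, 10.73, 10.77, 10.76, 10.71 and 10.85 in supplied embryos. Withdrawn replicate 4 was the lowest of all 12, and the other 5 withdrawn embryos were above every supplied one. The fold change was 0.17 (SE 0.07, adjusted p = 0.0919) and was not called, but it was called without withdrawn replicate 4 (0.21, adjusted p = 0.0373) and without title number 3 (0.21, adjusted p = 0.0365).

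The clamp is opened by replication factor C, of which Rfc1 is the large subunit. Rfc1 had 11.89, 12.03, 12.06, 11.88, 11.96 and 11.84 in withdrawn and 12.01, 11.91, 11.74, 11.68, 11.72 and 11.75 in supplied embryos. Supplied replicates 1 and 2 lay within the withdrawn range and the other 4 below it, and the fold change was 0.15 (SE 0.07, adjusted p = 0.150). Rfc5 was at 0.11, Rfc2 at 0.13, Rfc3 at 0.01 and Rfc4 at -0.01. For Rfc2 withdrawn replicate 5 was at 10.23, where the other withdrawn embryos lay between 9.52 and 9.70 and the supplied ones between 9.53 and 9.73. The fold change of Rfc2 was 0.03 without that embryo and -0.01 without title number 4. Of the 6 clamp and loader genes limma called 0, and 2, Pcna and Rfc1, had an unadjusted p below 0.05. By the exact permutation test there were also 2, Pcna and Rfc5.

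Ribonucleotide reductase makes deoxynucleotides from ribonucleotides, and thymidylate synthase makes the thymidine one. Rrm1, the large subunit of the reductase, had 11.43, 11.49, 11.51, 11.32, 11.66 and 11.37 in withdrawn and 11.51, 11.40, 11.19, 11.31, 11.26 and 11.30 in supplied embryos. Withdrawn replicate 5 was above all supplied embryos and 4 supplied embryos were below all withdrawn ones, and the fold change was 0.13 (SE 0.07, adjusted p = 0.194). The small subunit Rrm2 was at 0.06 and Tyms, thymidylate synthase, at 0.12. None of these 3 was called by limma, and 0 had an unadjusted p below 0.05 by limma or the exact permutation test. A listed pseudogene, Tyms-ps, may share reads with Tyms.

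No gene of histone supply or cyclin E was called. Chaf1a, the large subunit of the chromatin assembly factor that places histones on new DNA, had 10.98, 11.17, 10.9995, 11.18, 11.23 and 11.03 in withdrawn and 11.21, 11.04, 11.26, 11.37, 11.05 and 11.10 in supplied embryos. The 3 lowest values were withdrawn and the 2 highest supplied, with the rest mixed, and the fold change was -0.07 (SE 0.07, adjusted p = 0.523). Chaf1b was at -0.005 and Slbp, which binds the stem-loop of histone mRNAs, at 0.01. Ccne1, a cyclin that activates Cdk2 at the start of S phase, had 9.95, 10.15, 9.95, 10.07, 10.01 and 10.27 in withdrawn and 9.98, 10.02, 9.95, 10.02, 9.98 and 10.07 in supplied embryos. Withdrawn replicates 2, 4 and 6 were highest, replicates 1, 3 and 5 lay among the supplied embryos, and the fold change was 0.06 (SE 0.07, adjusted p = 0.548). Ccne2 was at -0.05. Of these 5 genes limma called 0, with 0 at an unadjusted p below 0.05 by either test.

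The genes did not all follow 1 pattern across embryos. The mean of the 47 genes per embryo lay between 10.36 and 10.43 in withdrawn and between 10.31 and 10.40 in supplied embryos, so the ranges overlapped. Withdrawn replicate 5 had the highest value for 18 of the 47 genes (38.3%) and the lowest for 10 (21.3%). For all genes tested these shares were 22.3% and 27.3%. The genes for which it was highest included Mcm10, Rpa1, Mcm2, Mcm7, Pola2, Pcna, Rrm1 and Rfc2, and those for which it was lowest included Pold2, Pole, Pole2, Pola1, Cdc6 and Gins2. Supplied replicate 5, at the other end, was lowest for 8 genes and highest for 1, and supplied replicate 4 was also lowest for 8. Without withdrawn replicate 5, limma called 0 of the 47 genes, 6 had an unadjusted p below 0.05, and 31 fold changes were positive. Over all genes, the same fit called 1297 (10.4%), with 3349 at an unadjusted p below 0.05 and 47% positive.

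**Figure D4:**
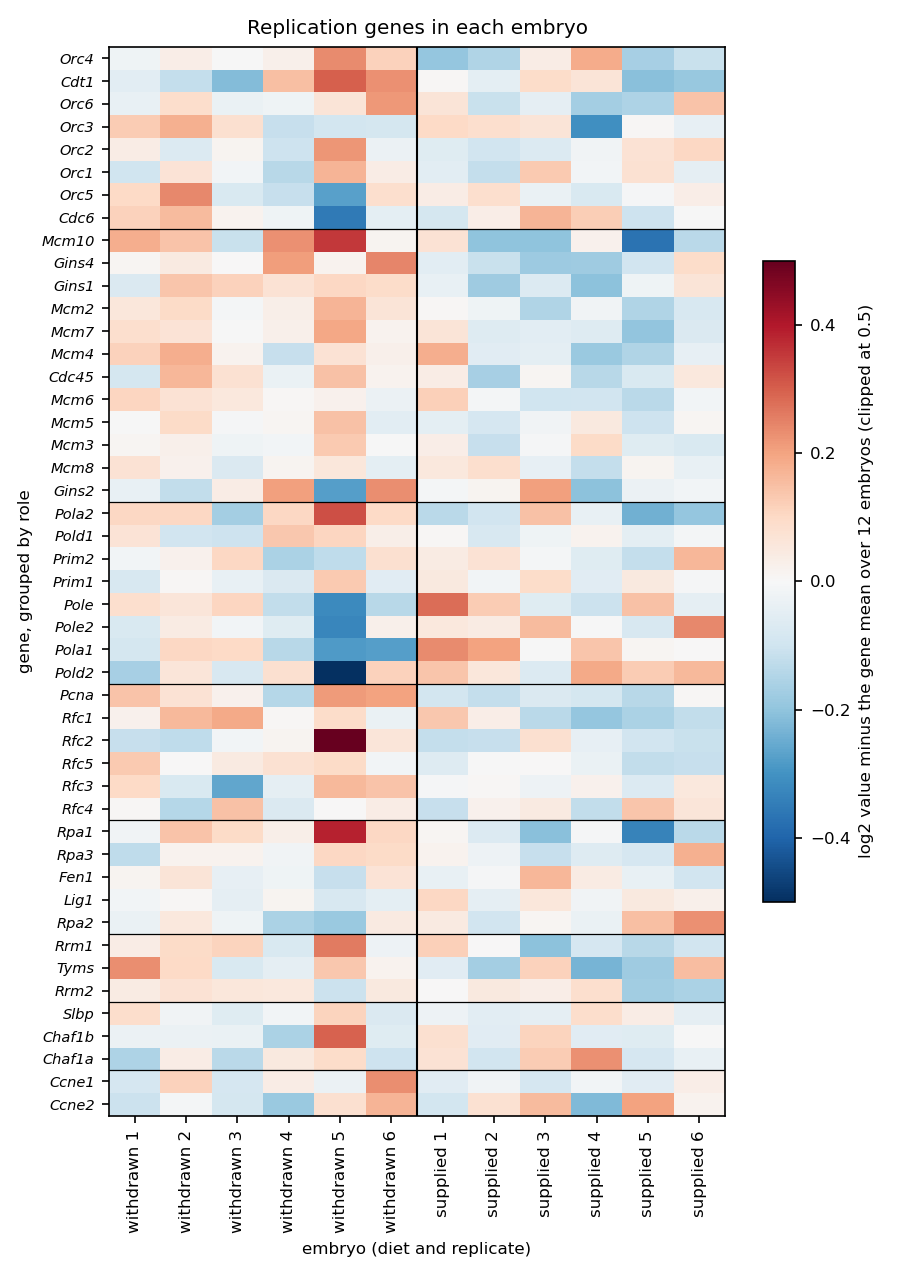
Value of each gene (rows, grouped by role with black lines) in each embryo (columns, withdrawn left, supplied right) as the log2 difference from that gene's mean over the 12 embryos, red above and blue below, clipped at 0.5. Withdrawn replicate 5 has the most extreme colours in both directions, and the helicase rows are mostly red on the left and blue on the right.

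The numbers 1 to 4 in the embryos' titles occur under both diets, and what they mark is not stated. Taking withdrawn minus supplied within each number, 31 of the 47 differences were positive in number 1, 24 in number 2, 26 in number 3 and 36 in number 4. The medians over the genes were 0.0496, 0.000694, 0.0326 and 0.0882, and those over all genes tested lay between -0.0144 and -0.000525. The difference was positive in all 4 numbers for 14 of the 47 genes (29.8%), among them 8 helicase genes, and for 14.7% of all genes. It was negative in all 4 for 2, Pold2 and Pole2, which is 4.26%, against 15.7% of all genes. Mcm10 differed by 0.23, 0.09, 0.21 and 0.44 in numbers 1 to 4, and Rpa1 by 0.09, 0.31, 0.03 and 0.48. Both differences were largest in number 4, and Pola1 was at -0.21, 0.10, -0.28 and -0.28. With the 4 embryos of number 4 left out, limma called 49 of all genes tested, and 1963 had an unadjusted p below 0.05. Of the 47 genes it called 0, and 3 had an unadjusted p below 0.05.

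**Figure D5:**
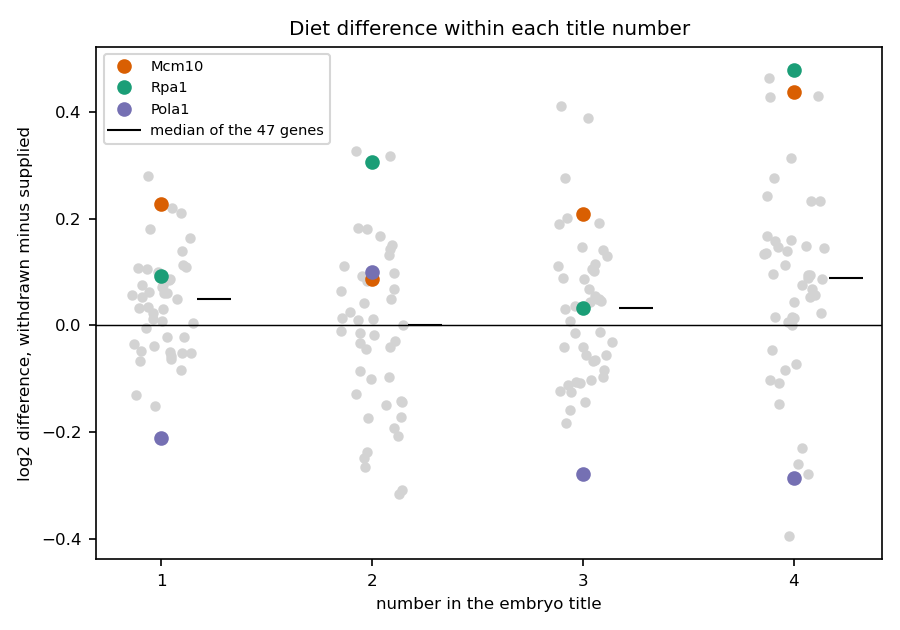
Difference between withdrawn and supplied embryos in log2 value (y axis) within each title number (x axis) for the 47 genes (grey points), with Mcm10, Rpa1 and Pola1 coloured and a black bar at the median; numbers 1 and 4 hold 2 embryos of each diet and numbers 2 and 3 hold 1 of each. Mcm10 and Rpa1 lie above 0 in all 4 numbers and highest in number 4.

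Other genes of replication, outside the 47, were taken from a list of 46, of which 45 were in the table. Their fold changes were positive for 25 (55.6%, against 46.6% of all genes tested) and negative for 20, with a median of 0.02. Before adjustment, 15 had a limma p below 0.05, 13 of them higher and 2 lower, against 30.2% of all genes tested. Limma called 4 of these 45 (8.89%) higher and 0 lower, against 14.0% of all genes tested called and 6.22% called higher. They were Nasp, a chaperone of newly made histones, at 0.32 (SE 0.07, adjusted p = 0.00657), and Dbf4, the activating subunit of the kinase that fires origins, at 0.27 (SE 0.07, adjusted p = 0.0116). Ssrp1, a subunit of the histone chaperone FACT, was at 0.25 (SE 0.07, adjusted p = 0.0159) and Shmt1, a folate enzyme that supports thymidylate synthesis, at 0.24 (SE 0.08, adjusted p = 0.0402). For 2 of the 45, Nasp and Dbf4, the groups did not overlap, against 4.49% of all genes. Nasp was between 13.61 and 13.81 in withdrawn and between 13.16 and 13.56 in supplied embryos, and Dbf4 between 11.90 and 12.01 in withdrawn and between 11.43 and 11.85 in supplied embryos. None of the 4 was called by limma without title number 4, where they ranged from 0.12 to 0.19, and Shmt1 was called in 11 of 28 alternatives.

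Of 18 genes of the E2F network, which controls many genes of S phase, 2 (11.1%) were called higher and 0 lower by limma, against 14.0% of all genes tested called and 6.22% called higher. Mybl2, the Myb factor that joins the MuvB complex in S phase, was at 0.36 (SE 0.10, adjusted p = 0.0188), and E2f8, an E2F that represses its targets late in S phase, at 0.26 (SE 0.08, adjusted p = 0.0391). E2f3, an activating E2F, was at 0.17 (adjusted p = 0.117), and Rb1, the retinoblastoma protein that holds E2F inactive, at -0.26 (adjusted p = 0.123). Neither called gene was called without supplied replicate 5 or without title number 4. Mybl2 was called in 22 of 28 alternatives and E2f8 in 10.

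Levels can be set against each other only per length of transcript. Taking the log2 value less the log2 of the longest coding transcript in kilobases (GENCODE M21), Mcm3 had the highest level per kilobase, at 11.39 in withdrawn and 11.35 in supplied embryos, followed by Lig1 (11.22 in withdrawn and 11.28 in supplied embryos). The subunits of the Mcm2 to Mcm7 ring, which stand in equal numbers in the complex, ranged from 10.26 in Mcm4 to 11.39 in Mcm3 in withdrawn embryos and from 10.16 to 11.35 in the same genes in supplied embryos. Mcm10 was at 8.59 in withdrawn and 8.32 in supplied embryos on this scale. Gins2, at 5.08 in withdrawn and 5.07 in supplied embryos, was lowest, and Ccne2 next, at 6.49 in withdrawn and 6.53 in supplied embryos. The longest transcript need not be the one used in these cells. Subtracting the log2 length gives a level per kilobase only if the deposited values are plain log2 counts. Their transformation is not given, so levels and ranks on this scale are approximate, also for low genes such as Gins2 and Ccne2.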

How the data were processed

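RNA was sequenced from Oct4-positive germ cells of 12 embryos, after library preparation with a Clonetech SMART kit, per the labels' protocols. The authors deposited normalized log2 expression values per gene and embryo. Per the submitters' processing notes, DESeq2 1.10.1, TopHat2 2.0.13, Trim Galore 0.4.0 and FastQC were used with build mm9. Not given in the sources used here are the counting tool, its strand setting and the log2 transformation. Depth is unknown, so no counting interval is given, and fold changes of low genes may be understated.

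Genes with a mean below 3.322 (log2 of 10) were dropped, which removed 84. Diets were compared with limma 3.58.1 (R 4.3.3, variance trend, two-sided, Benjamini-Hochberg over 12432 genes) and with an exact permutation test per gene, whose smallest p is 0.00216. Embryos are biological replicates per the series text. Whether embryos that share a title number and diet share a mother is not stated, and p-values are too small if they do. The main limma fit was tested on simulated data with independent embryos, which does not address such sharing. The permutation test was tested on constructed values, and the other fits were not tested in this way.

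The members and lists were chosen with earlier results of these data known. Every member is named. Values in every embryo are given for members with an unadjusted p below 0.05, for the smallest p of each role, and for the highest and lowest mean. Of the other lists, called genes, up to 4 with the smallest p and the helicase genes Mcm9, Mcmbp and Gins3 are named. Alternatives changed the filter, scaling, variance model, weights, test, covariate, title-number block and embryos included. Promoter sequences are RefSeq's (GRCm38.p6), matched by symbol.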

Additional observations from a re-analysis of the deposited data

Results flagged for a closer look

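Of 106 groups of 6 embryos examined for 1 embryo far from the other 5, 8 held such a value (7.55%), where chance gives about 1 in 20. Withdrawn replicate 5 accounted for 6 of the 8. It was high for Mcm3 at 13.1 (the other withdrawn embryos 12.95 to 12.99), for Rfc2 at 10.23 (9.519 to 9.705), for Chaf1b at 8.786 (8.332 to 8.463) and for E2f8 at 10.42 (9.904 to 10.07). It was low for Pole2 at 7.087 (7.338 to 7.455) and for Rrm2 at 10.58 (10.73 to 10.76). Withdrawn replicate 1 was low for Gins1 at 9.365, against 9.509 to 9.576 in the others of its diet. Supplied replicate 4 was low for Orc3 at 9.914, against 10.18 to 10.32.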

How the results depend on the processing

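Over 28 alternatives, 17 of the 47 genes changed sign in at least 1 (82 combinations of gene and alternative), and 0 of these combinations were called in either fit. Of the 47 genes, 42 were called in no alternative and 0 in all of them. Of all genes tested, limma called 886 with a random effect for each combination of title number and diet, 298 with the embryos of each combination averaged, 1 with the somatic marker covariate, 729 without title number 1, 49 without title number 4, and 808 to 2315 with 1 embryo left out; the exact permutation test called 558. Of the 47 replication genes, 1 was called with weights per library or without title number 1. None was called with the random effect (8 at an unadjusted p below 0.05), averaging (5), the exact test (9), the covariate (0) or without title number 4 (3). With 1 embryo left out, 0 to 4 were called: 0 without supplied replicate 3, 5 or 6 or withdrawn replicate 2 or 5 (6 to 8 unadjusted), and 4 without withdrawn replicate 3. Of the other replication genes, 2 were called under quantile normalization or the exact test and 0 with averaging, the covariate or without title number 4. Of the E2F network, 1 was called under quantile normalization, without a variance trend, with the random effect or without title number 2, 0 with averaging, the exact test, the covariate or without title number 1 or 4, and 0 to 3 with 1 embryo left out. Median centring moved the median of all genes by 0.0166, with 904 called higher and 795 lower. The cause of these changes was not tested.

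Deviations from the diet means correlated at 0.311, -0.045, 0.208 and -0.216 between same-numbered embryos of both diets. Between embryos of different numbers the correlations ran from -0.364 to 0.302. So few values cannot decide whether the title numbers pair the embryos, and the main fit did not pair them. With the number as a replicate block, limma called 2062 of all genes, 3 of the 47, 8 of the other replication genes and 2 of the E2F network.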
